A study of Mus musculus with 2 samples.

Results

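The mitochondrially encoded genes are the genes carried by the mitochondrial chromosome itself. They were taken here as every gene whose name starts with mt- in the transcript counts of both libraries. GENCODE M21 annotates 37 of them on the mitochondrial chromosome of mouse build mm10, namely 13 protein-coding genes, 2 ribosomal RNA genes and 22 transfer RNA genes. Of the 14675 annotated genes with reads in either library, 17 were mitochondrially encoded, and the models of any other class on the same chromosome were listed as well. The counts come from long-read RNA sequencing of gastrocnemius, the calf muscle, of male B6CASTF1/J mice aged 2 months, the F1 cross of the strains C57BL/6J and CAST/EiJ. The 2 libraries, each made from 2 µg of RNA, belong to 1 group with no stated treatment, which leaves no contrast of conditions to test. The labels number the libraries as biological replicates 1 and 2 and give the males different numbers, but they share 1 donor identifier. The spread between the libraries may therefore be technical, and the labels do not settle whether there were 2 animals.

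In animal mitochondria both strands of the circular genome are transcribed as long precursors. Transfer RNAs sit between most of the other genes, and their excision frees the messenger and ribosomal RNAs, which then receive a short poly(A) tail. All the mitochondrial messenger RNAs encode membrane subunits of the oxidative phosphorylation complexes, while the nucleus supplies every other subunit and the machinery that copies, transcribes and translates the mitochondrial genome. Skeletal muscle relies on these complexes for sustained contraction, slow fibres more than fast ones.

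Replicate 1 held 1107128 reads of annotated genes and replicate 2 held 1402875. Levels are reads per 1000000 of these (CPM). For a gene with 0 reads, a count of 3 was taken as the upper limit, which is 2.71 CPM in the first library and 2.14 CPM in the second. The 5 skeletal muscle markers, with Acta1 and Ckm (skeletal actin and muscle creatine kinase) the highest, reached between 2031 and 68626 CPM on average. Of the markers of other cell types, the cardiac genes Nppa, Tnnt2 and Tnni3 had no reads, and Myh6 had 1 and 5. The 4 macrophage genes summed to at most 2.14 CPM. Markers of other cells were present: in replicates 1 and 2 the fibroblast genes summed to 567 and 634 CPM and the erythroid genes to 170 and 108. Endothelial genes summed to 19.9 and 37.1 CPM and adipocyte genes to 11.7 and 2.85. The 10 slow fibre genes summed to 3025 CPM in replicate 1 and 9110 CPM in replicate 2.

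Mitochondrially encoded genes took a small and similar share of the reads of both libraries, and nearly all of it fell on protein-coding genes. Their reads numbered 3043 in replicate 1, or 0.275% of the reads of annotated genes (Wilson 95% interval 0.265 to 0.285), and 3760 in replicate 2, or 0.268% (0.260 to 0.277). The mean was 0.271% ± 0.00483 (SD, n = 2), and the intervals overlapped. With annotated transcripts only, which leaves out reads of other models of nuclear genes, the mean share was 0.412%. Protein-coding genes held 95.0% and 96.4% of these reads. Ribosomal RNAs held 4.47% and 3.14%, and transfer RNAs held 0.493% and 0.479%. Every read of a mitochondrial gene was assigned to its annotated transcript, a single-exon model, and none to an unannotated model under the gene's name. The length of the molecules behind these reads is therefore not visible in the counts. All these shares are of counted reads, and how far they follow amounts of RNA in the muscle was not tested.

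Of the 37 genes, 15 had reads in both libraries, 2 more in replicate 2 alone, and 20 in neither. The genes without reads were 19 of the 22 transfer RNA genes, which span 59 to 75 nt, and mt-Atp8, a short subunit gene of ATP synthase. For each of these a level up to the floors given above cannot be told from 0. In the plot of levels in genome order, mt-Co1 was the highest, at a mean of 1009 CPM. The low end of the range is not fixed, since mt-Nd4l, mt-Nd6 and mt-Tm, with at most 2 reads per library, lay below the floors.

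**Figure D1:**
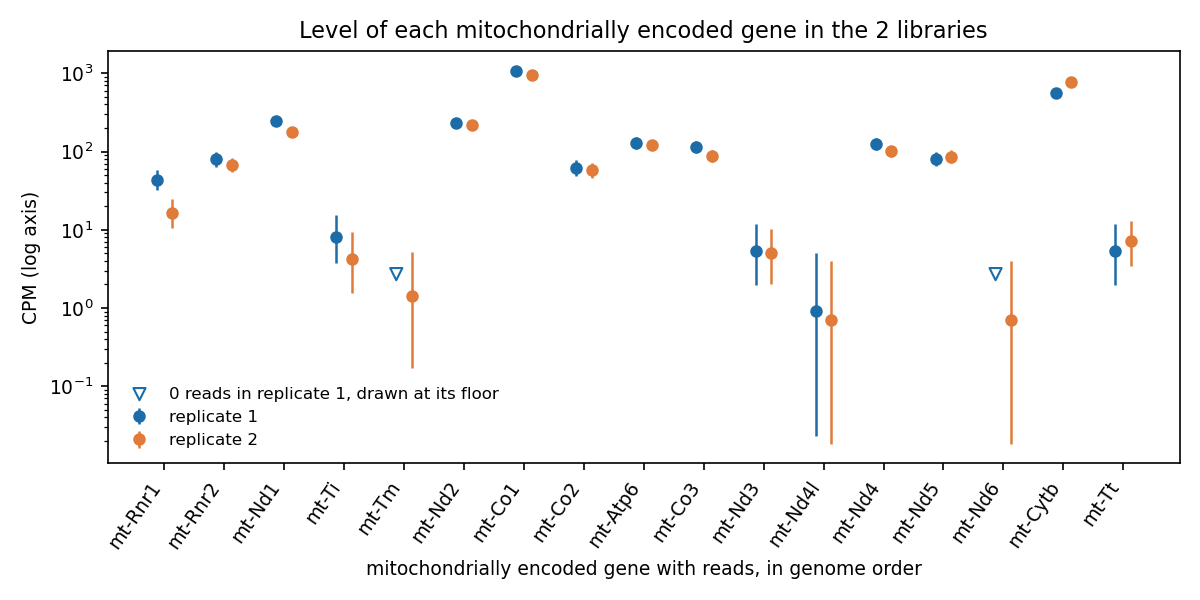
Level of the 17 mitochondrially encoded genes with reads, in genome order along the horizontal axis, on a logarithmic CPM axis; points are libraries, bars are exact Poisson 95% intervals for counting error, and open triangles mark 0 reads at the floor of replicate 1. mt-Co1 (1055 and 962 CPM) and mt-Cytb (565 and 766 CPM) stand above all other genes in both libraries.

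Both ribosomal RNAs, the small-subunit 12S RNA mt-Rnr1 and the large-subunit 16S RNA mt-Rnr2, had far fewer reads than the leading messenger RNAs. How completely each class of RNA entered the libraries was not tested. mt-Rnr2 had 88 reads in replicate 1 and 95 in replicate 2, a mean of 73.6 ± 8.32 CPM. mt-Rnr1 had 48 and 23 reads, a mean of 29.9 ± 19.1 CPM. mt-Rnr1 was thus the lower of the pair in each library, and its own level differed more between the libraries than that of mt-Rnr2. Per kilobase of transcript the means were 46.5 ± 5.26 CPM for mt-Rnr2 and 31.3 ± 20.0 CPM for mt-Rnr1.

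Complex I, the NADH dehydrogenase that feeds electrons into the chain, takes 7 of its subunits from the mitochondrial genome, and their levels fell into 3 ranges. mt-Nd2 had 254 reads in replicate 1 and 305 in replicate 2 (223 ± 8.49 CPM), and mt-Nd1 had 271 and 249 (211 ± 47.6 CPM). Which of these neighbours led changed from one library to the other. mt-Nd4 had 139 and 142 reads (113 ± 17.2 CPM), and mt-Nd5 had 90 and 121 (83.8 ± 3.51 CPM). mt-Nd3 had 6 and 7 reads (5.20 ± 0.304 CPM), mt-Nd4l had 1 in each library, and mt-Nd6 had 0 and 1. mt-Nd6 is the only messenger RNA gene on the minus strand as annotated, and its antisense partner there is the end of mt-Nd5, which it overlaps by 14 nt. mt-Nd4l overlaps the start of mt-Nd4 by 7 nt. In mammals this pair is carried by a joint messenger RNA, and the counts give each such read to 1 gene.

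mt-Cytb, the cytochrome b gene and the mitochondrial genome's sole contribution to complex III, was the second most read member. It had 626 reads in replicate 1 and 1074 in replicate 2, a mean of 665 ± 142 CPM, and ranked 145th and 123rd among all annotated genes. It held 20.6% of mitochondrial gene reads in replicate 1 and 28.6% in replicate 2.

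Complex IV, cytochrome c oxidase, holds the catalytic subunits encoded by mt-Co1, mt-Co2 and mt-Co3. mt-Co1 had the most reads of any mitochondrial gene in both libraries, 1168 and 1350, a mean of 1009 ± 65.5 CPM. It ranked 64th and 91st among annotated genes and held 38.4% and 35.9% of the mitochondrial reads. mt-Co3 had 126 and 123 reads (101 ± 18.5 CPM), and mt-Co2 had 69 and 81 (60.0 ± 3.24 CPM). On reads per gene mt-Co1 thus stood far above its partners in each library, before reads of nuclear copies are considered. Together mt-Co1 and mt-Cytb supplied 59.0% and 64.5% of all mitochondrial gene reads.

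ATP synthase, complex V, has mt-Atp6 and mt-Atp8 from this genome. mt-Atp6, a proton channel subunit, had 142 reads in replicate 1 and 170 in replicate 2, a mean of 125 ± 5.01 CPM. mt-Atp8 had 0 in both. The genes overlap by 43 nt on the same strand and share a messenger RNA in mammals, so reads of that RNA can stand under the name of mt-Atp6.

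Per kilobase the same 2 genes led, and several neighbours in the order could not be separated. Each read was counted once whatever its length. Whether division by gene length brings counts closer to numbers of molecules was not tested. Per kilobase mt-Co1 had 653 ± 42.4 CPM per kb and mt-Cytb 582 ± 124. Their log2 ratio (0.18 ± 0.40, SD, n = 2) did not exceed the spread, since mt-Cytb was the higher one in replicate 2. mt-Nd1 (221 ± 49.7 CPM per kb) and mt-Nd2 (215 ± 8.18) followed, also within the spread of each other. Then came mt-Atp6 (183 ± 7.35), mt-Co3 (128 ± 23.6), mt-Co2 (87.8 ± 4.74), mt-Nd4 (82.3 ± 12.5), mt-Nd5 (45.9 ± 1.92) and mt-Nd3 (15.0 ± 0.873). Of the 12 neighbouring pairs of the 13 protein-coding genes, 7 had a log2 ratio of 1 sign in each library with a mean over 2 SD from 0. On reads per gene, 6 of 12 did. On that scale mt-Nd2 came before mt-Nd1, and mt-Nd4 and mt-Nd5 before mt-Co2. An SD of 2 libraries is imprecise, and the rule leaves out counting error. On reads per gene mt-Nd4 met it over mt-Co3, although their Poisson intervals overlapped in both libraries. In replicate 1 these were 106 to 148 and 94.8 to 136 CPM.

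Among the 12 protein-coding genes on the plus strand, Spearman's rho between annotated length and reads was 0.69 in replicate 1 and 0.69 in replicate 2. With the reads of near-identical nuclear copies added it was 0.53 and 0.52. The longest gene, mt-Nd5, had fewer reads than the shorter mt-Atp6. It also had fewer than mt-Co3 (90 against 126 and 121 against 123), but that log2 ratio (0.25 ± 0.32) lay within the spread. These points share a library and a precursor RNA, and the value is a description. The 3 genes annotated at under 400 nt, mt-Nd3, mt-Nd4l and mt-Atp8, had 0 to 5.20 CPM. In mammals mt-Nd4l and mt-Atp8 share a messenger RNA with a longer gene, so their counts do not show how short molecules were read. The 13 nuclear subunit genes of oxidative phosphorylation whose read models averaged under 400 nt had a median of 434 CPM. Their lowest value was 37.5 CPM. Annotated lengths and lengths of read models are unlike measures, and the part of length in these counts was not tested.

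Only 3 transfer RNA genes had reads, and each abuts or overlaps a messenger RNA gene on the same strand. Of the 8 transfer RNA genes so placed, these 3 had reads and 5 had none (mt-Tl1, mt-Tw, mt-Tg, mt-Tl2 and mt-Te). None of the other 14 had reads. Whether position bears on detection was not tested. mt-Ti, the isoleucine transfer RNA gene at chrM:3706-3774, had 9 reads in replicate 1 and 6 in replicate 2. It overlaps the last 2 bases of mt-Nd1. mt-Tt, the threonine transfer RNA gene at chrM:15289-15355, had 6 and 10 reads and starts at the base after mt-Cytb. mt-Tm, the methionine transfer RNA gene at chrM:3845-3913, had 0 and 2 reads and ends at the base before mt-Nd2. The counts of all 3 are low, and their exact intervals of the ratio between the libraries included no difference. The sequences of the 3 genes as annotated, from GENCODE M21 on the plus strand, are shown because they are the only transfer RNA genes with reads. They have no capitals.
mt-Ti: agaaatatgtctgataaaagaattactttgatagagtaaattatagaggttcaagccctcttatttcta
mt-Tt: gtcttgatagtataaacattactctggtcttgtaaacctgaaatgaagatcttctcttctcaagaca
mt-Tm: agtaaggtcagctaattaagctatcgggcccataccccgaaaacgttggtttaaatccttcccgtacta

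The annotated ends of the messenger RNA genes differ in whether they hold a whole stop codon. mt-Co3, mt-Nd4 and mt-Cytb end in a lone T, and in animal mitochondria such stops are completed by the poly(A) tail. The last 27 bases of these 3 genes, on the plus strand, are set beside those of mt-Co1, mt-Co2 and mt-Atp6, which end in a full codon. Capitals mark the stop codon or its encoded part.
mt-Cytb: aagacaaaatactaaaattatatccaT
mt-Co3: acgtctccatttattgatgaggatctT
mt-Nd4: caaaactaattacaggcctgacaataT
mt-Co1: gaaccaacctatgtaaaagtaaaaTAA
mt-Co2: gaaaactgatctgcttcaataattTAA
mt-Atp6: agcctatatctacatgataatacaTAA
These ends lie at chrM:15262-15288, chrM:9364-9390, chrM:11518-11544, chrM:6846-6872, chrM:7670-7696 and chrM:8581-8607. The genes with a lone T included a high one (mt-Cytb) and 2 of middle level (mt-Co3 and mt-Nd4), so the kind of ending did not sort the genes by level.

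A block of nuclear sequence near-identical to part of the mitochondrial genome drew many reads of the same kind. It lies on the minus strand of chromosome 1, at chr1:24611535-24616197, and GENCODE M21 annotates 7 genes in it that match a mitochondrial gene at 99% identity or more over at least 95% of their own length. Their reads numbered 484 in replicate 1 and 559 in replicate 2, or 13.7% and 12.9% of the reads of mitochondrial genes and copies together. Such nuclear insertions of mitochondrial DNA are known in most animal genomes. How the authors' alignment placed a read that matches both places is not given in the sources used here, and the split of reads within each pair is uncertain.

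For 3 genes the copy took about as many reads as the mitochondrial gene. mt-Co2 had 69 and 81 reads and its copy Gm28661 had 76 and 71, so the copy held 52.4% and 46.7% of the pair. mt-Atp6 had 142 and 170 and Gm10925 had 121 and 186, a copy share of 46.0% and 52.2%. mt-Co3 had 126 and 123 and Gm28437 had 130 and 130, a copy share of 50.8% and 51.4%. In all 3 pairs the copy is identical to the gene over its whole length (681, 678 and 783 nt) and stops short of the stop codon or of the lone T. The first 60 bases of mt-Co2, at chrM:7013-7072, show what the 3 pairs have in common: they are the same, base for base, in Gm28661. Capitals mark the first codon.
mt-Co2: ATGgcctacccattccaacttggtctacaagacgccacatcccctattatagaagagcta

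The other copies cover part of a gene, differ from it by a base, or had few reads. Gm29216 matches the last 483 nt of mt-Co1 and had 152 and 163 reads, 11.5% and 10.8% of the pair. Gm28439 matches the first 876 nt of mt-Nd4 and had 1 and 2 reads, against 139 and 142 for the gene. That was 0.714% and 1.39% of the pair. Of these partial copies, the one that holds a gene's 3′ end thus had more reads, and a larger share of its pair, than the one that lacks it. Their genes differed as well, since mt-Co1 itself had 1168 and 1350 reads. With 1 copy of each kind, the part held and other differences between the pairs cannot be told apart. Gm28438, the copy of mt-Nd3, had 4 and 4 reads, and Gm10222, the copy of mt-Nd4l, had 0 and 3. A further copy of mt-Co1 on chromosome 2, Gm13340, is less alike (97.6% identity over 1545 nt) and had 13 and 11 reads. Of the other listed copies, Gm10221 (74 and 124 reads) and Gm10288 (15 and 12) matched no mitochondrial gene at 80% identity over 40 nt or more.

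Among the 7 near-identical pairs only 2 substitutions were found, with positions counted from 1 at the 5′ end of the mitochondrial gene. The substitution T3C separates mt-Nd3 from Gm28438 in the first codon, and A1066T separates mt-Co1 from Gm29216 at the upstream edge of the match. The windows around both, from chrM:9459-9476 and chrM:6378-6408 on the plus strand and from the 5′ ends of the copies' transcripts, are printed with the differing base in capitals. The bases before it in the Gm29216 window run past the edge of the match.
mt-Nd3: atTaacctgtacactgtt
Gm28438: atCaacctgtacactgtt
mt-Co1: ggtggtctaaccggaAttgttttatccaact
Gm29216: ggattggcaggaTttgttttatccaact

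With the copies' reads added to the mitochondrial gene, a setting chosen after seeing the data, mt-Co2 had 131 CPM in replicate 1 and 108 CPM in replicate 2 (mean 120 CPM), mt-Atp6 246 ± 11.5 CPM and mt-Co3 206 ± 36.0 CPM. These are 1.99, 1.97 and 2.04 times the values without the copies. mt-Co1 rose to 1135 ± 80.4 CPM, 1.13 times its value. mt-Atp6 then came before mt-Nd2 and mt-Nd1 in reads per gene, although its log2 ratio over mt-Nd2 (0.14 ± 0.12) lay within 2 SD of 0. The place of mt-Co2, mt-Atp6 and mt-Co3 in the order rests on which genome their reads are credited to. All mitochondrial genes with copies then held 0.319% and 0.308% of the reads of annotated genes.

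**Figure D2:**
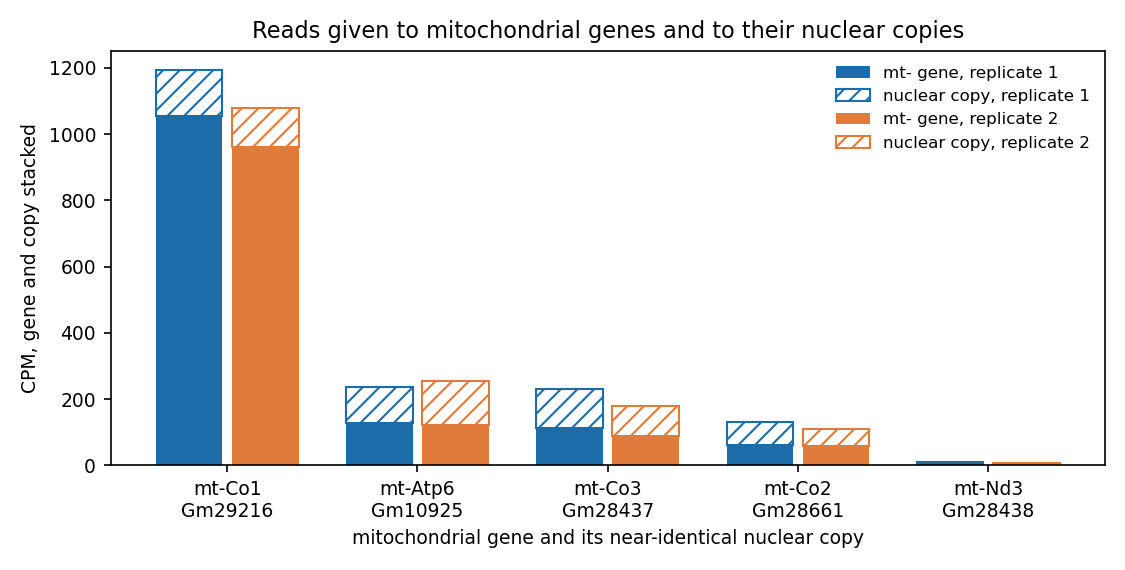
Stacked bars of CPM (linear axis from 0) for 5 mitochondrial genes (filled) and their near-identical nuclear copies (hatched) in each library; the pairs of mt-Nd4 and mt-Nd4l, whose copies had 3 reads or fewer in all, are not drawn. For mt-Co2, mt-Atp6 and mt-Co3 the hatched part is about as high as the filled one, and for mt-Co1 it held 11.5% and 10.8% of the pair.

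The libraries differed more in single mitochondrial genes than in their sum, and this comparison of 1 library with 1 other has no replicate check. Levels are compared as the log2 ratio of replicate 2 over replicate 1 with a prior count of 0.5, with exact conditional 95% intervals for counting error. Of the 14 genes with at least 10 summed reads, 3 were higher and 11 lower in replicate 2, with a median log2 ratio of -0.13. Over all 8626 annotated genes with as many reads the median was 0.12, and 59.8% were higher and 40.2% lower. With at least 50 summed reads, 1 of 11 mitochondrial genes was over 2-fold apart, against 4.42% of 4294 annotated genes.

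That gene was mt-Rnr1, at 43.4 and 16.4 CPM, with a log2 ratio of -1.39 (-2.19 to -0.66). Of all annotated genes with at least 50 summed reads, 0.536% were lower in replicate 2 by over 2-fold. mt-Cytb went the other way, from 565 to 766 CPM, with a log2 ratio of 0.44 (0.29 to 0.58). mt-Nd1 had 245 and 178 CPM (-0.46, -0.72 to -0.21), mt-Co3 had 114 and 87.7 CPM (-0.38, -0.75 to -0.01), and mt-Co1 had 1055 and 962 CPM (-0.13, -0.25 to -0.02). Intervals of these 5 genes left out 0. The reads of mt-Cytb over those of mt-Co1 accordingly moved from 0.536 in replicate 1 to 0.796 in replicate 2.

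For the other members the interval included 0 under scaling by totals. The log2 ratios were -0.31 for mt-Nd4, -0.23 for mt-Rnr2, -0.14 for mt-Nd3, -0.11 for mt-Co2, -0.08 for mt-Atp6, -0.08 for mt-Nd2 and 0.08 for mt-Nd5. mt-Ti had -0.89 and mt-Tt 0.35, each on under 17 summed reads. Median-ratio size factors lower every such log2 ratio by 0.10 and TMM factors by 0.09, under which mt-Nd5 also lay below 0 and the counts became 2 higher and 12 lower. The interval of mt-Nd4 then left out 0 as well, at -0.41 (-0.76 to -0.06) and -0.40 (-0.74 to -0.05). With the reads of nuclear copies added, mt-Atp6 turned to 0.09 (-0.14 to 0.33), which made 4 genes higher and 10 lower. The median of the mitochondrial genes was -0.24 with median-ratio factors, -0.22 with TMM factors, and -0.22 under scaling by totals with copies added.

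**Figure D3:**
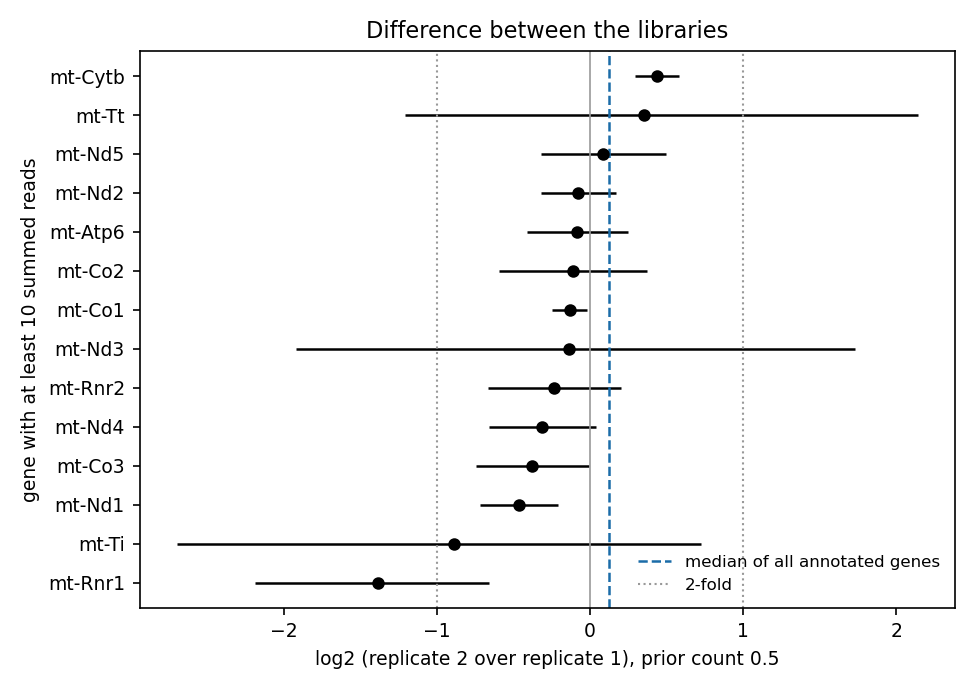
Points give the log2 ratio of replicate 2 over replicate 1 for the 14 mitochondrially encoded genes with at least 10 summed reads, bars give exact conditional 95% intervals for counting error, the dashed line marks the median of all annotated genes (0.12) and dotted lines mark 2-fold. mt-Rnr1 lies beyond 2-fold on the low side at -1.39, and mt-Cytb is highest at 0.44.

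Nuclear genes of the same complexes were mostly higher in replicate 2, as were 59.8% of all annotated genes with at least 10 summed reads. Of 78 nuclear subunit genes of complexes I, III, IV and V with at least 10 summed reads, 65 were higher in replicate 2 and 13 lower, with a median log2 ratio of 0.17, and none of the 78 genes that reached 50 summed reads differed by over 2-fold (0 of 78). Under median-ratio scaling 52 were higher and 26 lower, with a median of 0.070. Of all annotated genes with at least 10 summed reads, 51.9% were then higher, with a median of 0.022. The summed reads of the nuclear subunits had a log2 ratio of 0.24 (0.22 to 0.25), and those of the mitochondrial ones had -0.02 (-0.09 to 0.05). The 10 slow fibre genes were higher in replicate 2 in 10 of 10 cases, with a median log2 ratio of 1.29 and Myh7 and Tnnt1 (slow myosin and slow troponin T) at the head. The 9 fast fibre genes, led by Atp2a1 (the calcium pump) and Tnnc2 (troponin C), had a median of -0.42, with 2 higher and 7 lower in replicate 2. Atp2a1 itself had a log2 ratio of -0.03. The 2 higher genes were Myh4, the myosin of type IIB fibres (0.31), and Myh1, that of type IIX fibres, which was over 2-fold higher (1370 and 5362 reads). The part of fibre composition in the mitochondrial values was not tested. In such bulk samples fewer cells of a type and less RNA per cell cannot be told apart.

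Mitochondrial genes supplied a minor share of the reads of the complexes they help to build. Whether reads of both genomes were recovered equally in these libraries was not tested. Of all subunit reads of complexes I, III, IV and V, 5.05% (Wilson 95% interval 4.87 to 5.23) came from the mitochondrial genome in replicate 1 and 4.26% (4.13 to 4.40) in replicate 2, a mean of 4.66% ± 0.553. Per kilobase of the read models the shares were 2.87% and 2.14%. By complex the reads gave 4.31% and 3.30% for complex I, 8.37% and 9.08% for complex III, 8.96% and 6.91% for complex IV, and 0.837% and 0.663% for complex V. The share was lower in replicate 2 in every complex but III, where mt-Cytb is the sole contributor. With the nuclear copies credited to the mitochondrial genes, complex IV had 11.1% and 8.39% and complex V 1.54% and 1.38%.

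In complexes I and V most nuclear genes had more reads than any mitochondrial one, 30 and 33 of 37 in complex I and 17 of 18 in complex V in both libraries, whereas in complexes III and IV between 3 and 5 did. In complex I, Ndufa13 (1003 and 1175 reads) and Ndufs7 (750 and 1408) led the 37 nuclear subunit genes, whose median was 430 CPM, while mt-Nd2 ranked 33rd and 34th and mt-Nd1 31st and 35th of the 44 subunit genes. In complex III, Uqcrc1, a core subunit gene (1757 and 3055 reads), and Uqcrq (954 and 1621) led, and mt-Cytb ranked 6th and 5th of 10. In complex IV, Cox4i1, a regulatory subunit gene (2943 and 4906 reads), and Ndufa4 (1910 and 2870) led, and mt-Co1 ranked 4th and 5th of 19. In complex V, the catalytic subunit genes Atp5b (3465 and 6129 reads) and Atp5a1 (2903 and 4393) led, and mt-Atp6 ranked 18th of 20 in both libraries. Complex II, succinate dehydrogenase, has no mitochondrially encoded subunit. Its 4 genes were all higher in replicate 2 (median log2 ratio 0.37), beside 59.8% of annotated genes with at least 10 summed reads. Sdha had 820 and 1328 reads and Sdhb had 699 and 1415. These ranks are on reads per gene.

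**Figure D4:**
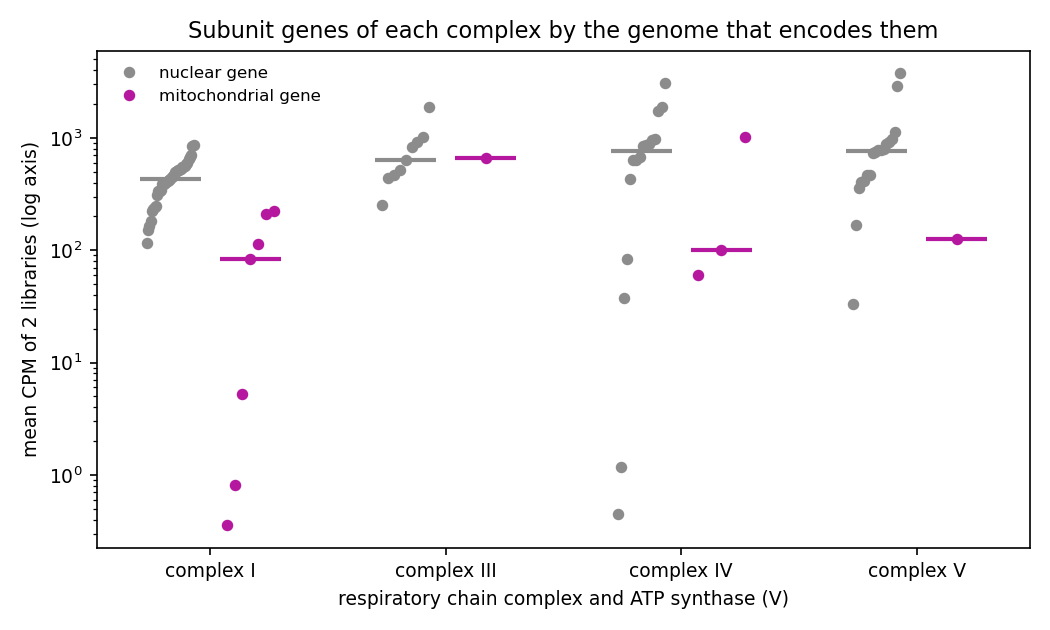
Mean CPM of the 2 libraries (logarithmic axis) for each nuclear (grey) and mitochondrial (magenta) subunit gene with reads in complexes I, III, IV and V, with a horizontal bar at the median of the genes drawn; mt-Atp8, with 0 reads, is not drawn. mt-Co1 (1009 CPM) and mt-Cytb (665 CPM) fall among the nuclear genes, and the other mitochondrial genes lie at or below 223 CPM.

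Nuclear genes that maintain and express the mitochondrial genome had lower median levels than the subunit genes, and their lists differed in how they compared between the libraries. Of 13 genes of mitochondrial DNA maintenance, 12 had reads, led by Ssbp1, the single-strand binding protein gene (90 and 159 reads), and Twnk, the helicase gene (39 and 63). Of 11 transcription genes, 10 had reads; Mrpl12, which encodes a ribosomal protein that also binds the mitochondrial polymerase, had 152 and 182, and Polrmt, the polymerase gene itself, had 37 and 47. The median log2 ratios were 0.12 for maintenance and 0.05 for transcription, beside 0.12 over all genes.

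Genes of RNA processing and stability, 27 of 27 with reads, had a median of 0.28, with Fastk (575 and 797 reads) and Slirp, an RNA-binding protein gene (132 and 219), the highest. Translation factors had a median of 0.62, and 11 of the 11 with at least 10 summed reads were higher in replicate 2. Over all annotated genes with as many reads, 59.8% were. The reads of the whole list, added up, gave a smaller log2 ratio of 0.39. Its highest members were the elongation factor genes Gfm1 (89 and 134) and Tufm (75 and 116). Their log2 ratios, 0.25 (-0.15 to 0.65) and 0.28 (-0.14 to 0.73), lay below that median, and both intervals included 0. Mitochondrial ribosomal proteins were close to even, with medians of -0.02 for the small and 0.06 for the large subunit. Their leading genes were Mrps21 (227 and 249 reads), Mrps36 (150 and 194), Mrpl30 (291 and 505) and Mrpl42 (278 and 380), and Dap3 (19 and 59) was over 2-fold apart. Transfer RNA synthetases had a median of 0.12, led by Kars (137 and 149 reads) and Gars (89 and 117), which also serve the cytosol.

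Assembly factors of complexes I and IV had medians of 0.22 and 0.33. Ecsit (122 and 172 reads) and Ndufaf4 (67 and 91) led the first list, Cox14 (278 and 384) and Cox17, a copper chaperone gene (154 and 222), led the second, and Cox19 (17 and 49) was over 2-fold apart. Among 12 genes that regulate mitochondrial programmes, the nuclear receptor genes Esrra (202 and 669 reads) and Esrrg (16 and 83) were over 2-fold higher in replicate 2, and both are known to act on oxidative metabolism genes in muscle. Of all annotated genes with at least 50 summed reads, 3.89% were higher in replicate 2 by over 2-fold.

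Models outside annotated genes held a small part of the reads on the mitochondrial chromosome. They had 78 of 3121 reads in replicate 1, or 2.50% (Wilson 95% interval 2.01 to 3.11), in 10 models, and 81 of 3841 in replicate 2, or 2.11% (1.70 to 2.61), in 14 models. Over the whole of each library, models outside annotated genes held 2.26% and 3.21% of endogenous reads. Reads on the minus strand of the mitochondrial chromosome numbered 15 and 28, or 0.481% (0.291 to 0.792) and 0.729% (0.505 to 1.05), and 1 of them belonged to mt-Nd6. Of these models, 2 had the same coordinates in both libraries.

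Most of these reads lay on the plus strand opposite genes that are encoded on the minus strand. Opposite the transfer RNA genes mt-Ta, mt-Tn, mt-Tc and mt-Ty, between mt-Nd2 and mt-Co1, replicate 1 had a single model at chrM:5018-5326 with 28 reads. Replicate 2 had a model opposite mt-Ta and mt-Tn at chrM:5018-5159 with 23 reads and one opposite mt-Tc and mt-Ty at chrM:5192-5326 with 6. The gap between the latter 2 models is where the origin of light-strand replication lies. In sum the place had 28 and 29 reads.

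Opposite mt-Nd6 and mt-Te, between mt-Nd5 and mt-Cytb, the plus strand had 19 and 13 reads, more than the 0 and 1 reads of mt-Nd6 itself. Replicate 1 split them into models at chrM:13565-14070 with 4 reads and chrM:14070-14145 with 15. Replicate 2 had 1 model at chrM:13565-14145 with 13. Opposite mt-Tp, the proline transfer RNA gene, 5 and 2 reads fell in a model at chrM:15356-15422 that had the same coordinates in both libraries.

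The non-coding region behind mt-Tp, which holds the promoters and the origin of heavy-strand replication, had reads on both strands. On the plus strand replicate 1 had a model at chrM:15422-16294 with 11 reads and replicate 2 one at chrM:15570-16050 with 7. On the minus strand replicate 1 had a model at chrM:15885-16294 with 9 reads, and replicate 2 had 12 reads in a model that starts and ends at position 16050. In replicate 2, 2 such models of 1 base held 15 reads, so their coordinates do not give the extent of the reads. The longest minus-strand model, at chrM:8607-11544, lies opposite the genes from mt-Co3 to mt-Nd4, spans 2938 nt, and had 3 and 6 reads with the same coordinates in both libraries.

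Both ends of 6 of the 10 models in replicate 1 and of 7 of the 14 in replicate 2 fell on an annotated gene boundary. Whether the authors' annotation step moved ends to such boundaries is not given in the sources used here.

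**Figure D5:**
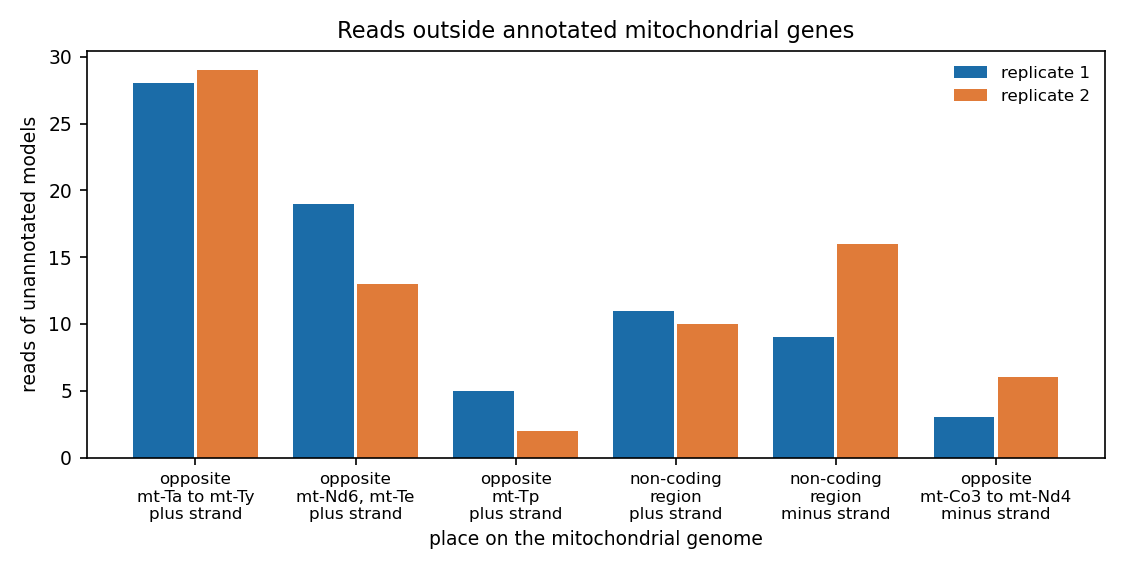
Reads of unannotated models on the mitochondrial chromosome by place and strand (linear axis from 0), with 1 bar per library. The plus strand opposite mt-Ta to mt-Ty had the most reads in both libraries (28 and 29), and the minus strand of the non-coding region had 9 and 16.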

How the data were processed

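Long-read RNA sequencing measured transcripts in 2 gastrocnemius libraries. Per the file headers, the deposited values are raw counts of reads for each transcript model, made by TALON on build mm10 with GENCODE M21. The sources used here do not give the aligner, its handling of reads that match 2 places, or any filter. ERCC spike-in reads were kept out of library sizes, and SIRV reads were not analysed here.

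Counts were summed per annotated gene and divided by the total of annotated gene reads (1107128 and 1402875) to give CPM. Of a symbol used by 2 genes, the gene with more reads was kept. Shares have Wilson 95% intervals; levels have exact Poisson and ratios exact conditional intervals. Intervals and the floor of 3 counts cover counting error only, since there are no molecular identifiers. Nuclear copies were found with BLAST+ 2.17.0 among GENCODE M21 transcripts, which also gave the printed sequences (GRCm38). Other tools were Python 3.11.15, pandas 2.3.3, scipy 1.17.1, R 4.3.3 and edgeR 4.0.16 (TMM factors only). Scripts were tested on simulated data.

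Named were every mitochondrial gene with reads, up to 10 unannotated mitochondrial models with at least 5 reads, and of each nuclear list the 2 highest genes and up to 3 over 2-fold apart with at least 50 reads. Some models with fewer reads were named after their values were seen, because they share a place with a named one. The members and lists were chosen with earlier results of these data known. Alternatives changed the models counted, the denominator, the scaling, count minimums, the prior count and depth, and left out each library.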

Additional observations from a re-analysis of the deposited data

How the results depend on the processing

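The share of mitochondrial genes among annotated gene reads (0.271%) was 0.412% with annotated transcripts only, 0.279% without genomic-class reads, 0.264% of all endogenous reads, 0.278% with all reads on the mitochondrial chromosome, and 0.313% with nuclear copies added, a setting chosen after seeing the data like every other use of the copies below. It was 0.268% to 0.275% with 1 library left out. The mitochondrial median log2 ratio (-0.13) was -0.24 with median-ratio factors, -0.22 with TMM factors and -0.22 with copies added. The nuclear subunit median (0.17) was 0.070 with median-ratio factors and 0.086 with TMM factors. The median over all annotated genes was 0.022 and 0.038 with these factors. The mitochondrial share of subunit reads (4.66%) was 5.46% with annotated transcripts only, 2.51% per kilobase and 5.37% with copies added, and 4.26% to 5.05% with 1 library left out. The unannotated share of mitochondrial chromosome reads ranged from 2.11% to 2.50% with 1 library left out. Detection in both libraries, the count over 2-fold (mt-Rnr1 in every setting) and the count of neighbouring pairs over 2 SD from 0 stayed within 1.5 times in every setting run. The last count does not take counting error into account. Depth limits the genes with few reads: mt-Nd3, mt-Nd4l, mt-Nd6 and the transfer RNAs rest on at most 16 summed reads each. No paired analysis was possible because there is 1 group. The cause of these shifts was not tested.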
